A study of Mus musculus with 10 samples.

Results

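The comparison set hippocampal RNA of A-CREB mice against that of wild-type mice, both injected with saline and not with a convulsant. It used 4 of the 10 arrays of the study, the 2 titled A-CREB saline and the 2 titled wild-type saline, chosen by their titles and paired by replicate number. The A-CREB mice came from line 95 of TetO-A-CREB, on a background given as C57BL6 F1/J. The wild-type mice were C57BL6 F1/J where the labels name a strain, which they do for saline array 1 and not for saline array 2. All mice were 3 weeks old, and each array held pooled hippocampal RNA of 3 to 4 animals. Errors therefore measure the spread between pools that is left after the shift shared by arrays of the same number was fitted. The other 6 arrays came from wild-type mice given 14 mg/kg kainate and A-CREB mice given 14 or 18 mg/kg. They entered the fit to estimate the spread, and the pair of groups at 14 mg/kg gave the same genotype difference in separate pools. The question is what blocking CREB does to gene expression at rest. The labels give 1 transgenic line and do not name the driver that turns the TetO promoter on, so the cells that carried A-CREB are not known from the sources used here.

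CREB is a basic leucine zipper transcription factor that is phosphorylated when cAMP or calcium rises in a cell. It then recruits the coactivators CREBBP and EP300 to genes with a cAMP response element (CRE) near their start. In hippocampal neurons it is known for activity-driven transcription, long-term memory and cell survival. A-CREB is a dominant-negative inhibitor: it keeps the leucine zipper of CREB, carries an acidic extension in place of the basic DNA-binding part, and traps CREB family members away from DNA.

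The promoters below are shown because they hold the element whose factor A-CREB blocks. Of the 32851 RefSeq promoter windows of GRCm38.p6, 250 bases before to 50 after a start, 1.79% held the full palindromic CRE, TGACGTCA, and 20.8% held TGACG or CGTCA, which are one another's reverse complement and lie within the full element. Both strands were searched. Of the 36 listed CREB target genes 28 had a window, and 6 of these held the full element in it. They were somatostatin (Sst), secretogranin II (Scg2), the phosphatase Dusp1, the antiproliferative factor Btg2, the prohormone convertase Pcsk1 and the peptide precursor Cartpt. Zap70, a kinase of T cell receptor signalling, is added because it was among the 20 genes of smallest p, a choice made after its values were seen. Capitals mark the CRE, and each stretch runs 5′ to 3′ on the strand of the gene.
Sst, chr16:23890855-23890922, minus strand: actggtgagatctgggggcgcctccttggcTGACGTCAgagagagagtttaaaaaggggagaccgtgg
Scg2, chr1:79440057-79440124, minus strand: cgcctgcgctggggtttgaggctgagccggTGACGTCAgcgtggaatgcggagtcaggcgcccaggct
Dusp1, chr17:26508578-26508645, minus strand: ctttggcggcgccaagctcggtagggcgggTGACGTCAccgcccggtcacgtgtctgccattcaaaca
Btg2, chr1:134079284-134079351, minus strand: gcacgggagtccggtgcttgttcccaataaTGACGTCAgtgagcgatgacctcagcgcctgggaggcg
Pcsk1, chr13:75089749-75089816, plus strand: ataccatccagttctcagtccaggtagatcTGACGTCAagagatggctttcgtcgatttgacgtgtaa
Cartpt, chr13:99900758-99900825, minus strand: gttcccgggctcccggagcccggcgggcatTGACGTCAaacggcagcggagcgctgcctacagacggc
Zap70, chr1:36761750-36761797, plus strand: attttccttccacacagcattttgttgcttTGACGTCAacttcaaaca

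Gene by gene, no difference at rest passed the test. Of 13248 genes, limma called 0 (0%) at an adjusted p under 0.05, and the smallest adjusted p was 0.518. At an unadjusted p under 0.05 there were 740 genes (5.59%), where 662 would be expected by chance, with 297 higher in A-CREB (2.24%) and 443 lower (3.34%). Without the replicate block the fit also called 0 genes and counted 196 at an unadjusted p under 0.05, fewer than the 662 expected by chance. Differences are given here as A-CREB minus wild type on the scale log2(signal + 22), where signal is the scaled brightness of a probe set, and the added constant makes the fold of dim genes smaller. The median difference over all genes was -0.03, and the median standard error of a gene was 0.19. With 2 arrays a group, an exact permutation test cannot go below 0.333, so the model fitted across all genes, which borrows its spread from the 10 arrays, was used.

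The pairs of saline arrays differed from each other. The difference between genotypes in the arrays numbered 1 correlated across genes with that in the arrays numbered 2 at r = 0.02, as a description, since genes are not independent replicates. Of all genes, 51.5% had the same sign in both pairs. Both saline arrays of one genotype lay above both of the other for 1152 genes higher in A-CREB (8.7%) and 1731 lower (13.1%). Genes that differed by at least 0.5 in both pairs numbered 95 higher and 105 lower, and by at least 1 there were 4 of each. The median signal of the saline arrays was 102 to 106 in those numbered 1, while both numbered 2 stood at 135, so the pairs also differed in their distribution of signal.

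**Figure D1:**
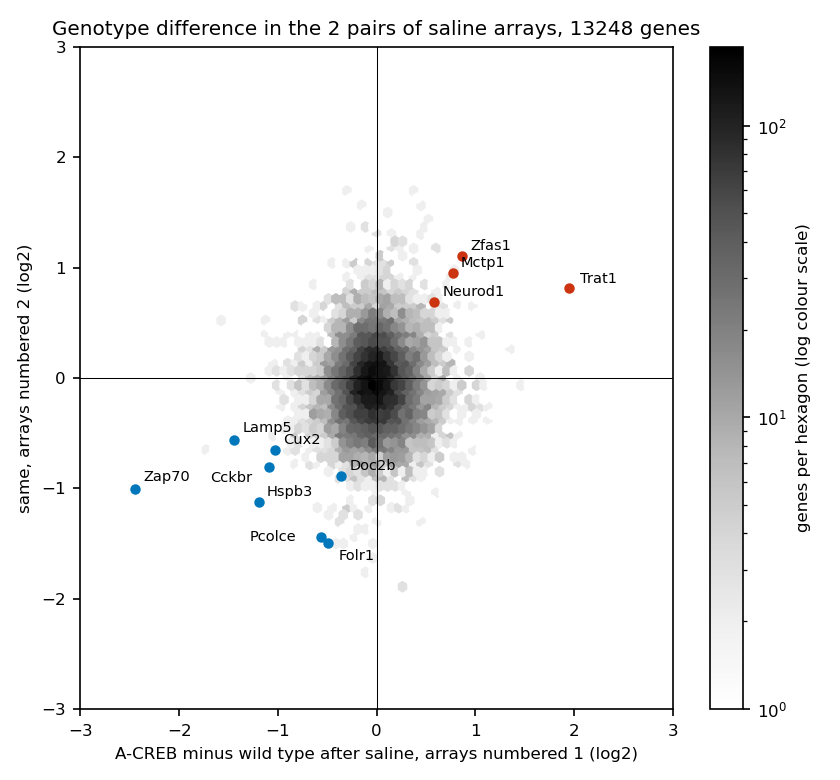
Difference between A-CREB and wild type after saline (log2) in the arrays numbered 1 (x axis) and numbered 2 (y axis) for 13248 genes, with darker hexagons holding more genes and coloured points marking named genes (red higher, blue lower in both pairs). The cloud is round about 0 (r = 0.02 across genes), and Trat1 (1.95 and 0.82) and Zap70 (-2.45 and -1.01) lie outside it.

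The clearest difference belonged to Trat1, which encodes an adaptor protein of the T cell receptor complex. On its probe set 1427532_at the saline signals were 31.0 and 31.4 in wild type and 407 and 447 in A-CREB. All 6 A-CREB arrays of the study, saline and kainate, lay between 311 and 447, and all 4 wild-type arrays at 50.7 or below, so no array of one genotype came near the other. When each of 27022 probe sets was tested on its own, a step added after the data were seen, this was the 1 probe set called. It rose by 3.08 (SE 0.25, adjusted p = 0.00155 by limma), an 8.44-fold difference on the scale with the constant. It was also higher after 14 mg/kg, by 2.86 (adjusted p = 0.00341). The next smallest adjusted p after saline was 0.959. Of the 27022 probe sets, 1382 had an unadjusted p under 0.05, where a share of 0.05 would be expected by chance.

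The call for that probe set depended on the fit. The adjusted p was 0.0965 with no replicate block, 0.0626 with only the 4 saline arrays, 0.0585 without A-CREB saline array 1 and 0.0674 without array 2, with differences between 2.98 and 3.17. Without wild-type saline array 1 the count of probe sets called after saline was 68, in place of 1. The probe set chosen to represent Trat1, 1437561_at, had saline signals of 75.3 and 236 in wild type and 355 and 434 in A-CREB. Here too the genotypes did not overlap, but the wild-type arrays differed from each other, and the difference of 1.39 (SE 0.25) had an adjusted p of 0.518 by limma. With the mean of the probe sets of a gene, Trat1 was the 1 gene called after saline (adjusted p = 0.00178). Of 4 tested T cell markers 1 was higher (Trat1) and 1 lower at an unadjusted p under 0.05, against 2.24% and 3.34% of all genes. The lower one was Zap70, with signals of 599 and 377 in wild type and 91.6 and 176 in A-CREB, a difference of -1.73 that the other 2 tested Zap70 probe sets did not share in sign.

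**Figure D2:**
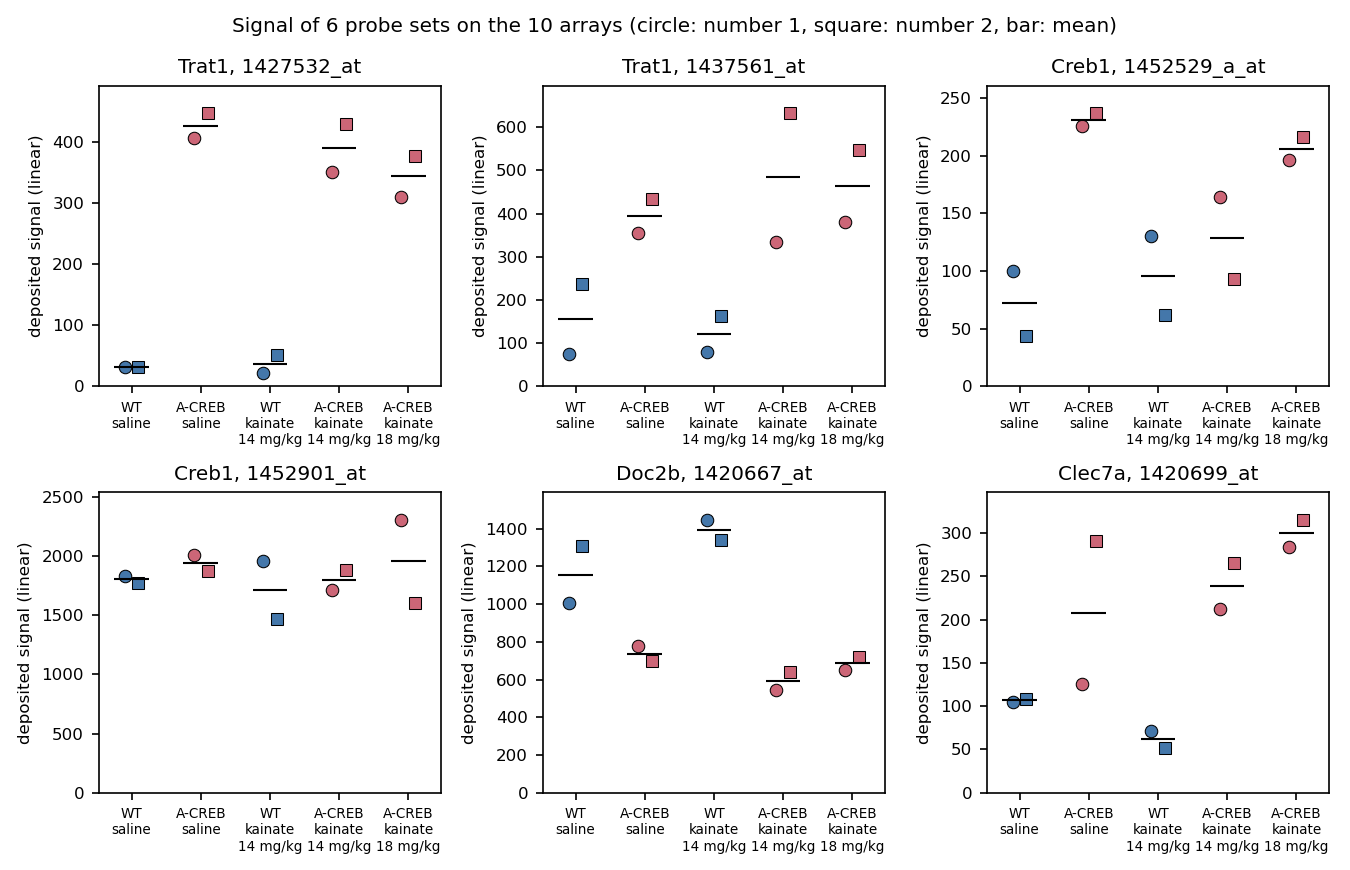
Deposited signal (linear y axis from 0) of 6 probe sets on each of the 10 arrays by group, with circles for arrays numbered 1, squares for those numbered 2 and bars for group means of 2. Trat1 1427532_at stands between 311 and 447 in all 6 A-CREB arrays and at 50.7 or below in the 4 wild-type arrays, while the saline arrays of Creb1 1452901_at stand at 1836 and 1776 against 2006 and 1872.

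Creb1, the gene of CREB itself, was measured by 5 tested probe sets that did not share a direction. The one that represents the gene, 1452901_at, gave 1836 and 1776 in wild type and 2006 and 1872 in A-CREB, without overlap, and the difference of 0.10 had a 95% interval from -0.26 to 0.46. The probe set 1452529_a_at gave 100 and 44.0 in wild type and 226 and 237 in A-CREB, a difference of 1.49 with an adjusted p of 0.959 by limma. After 14 mg/kg its difference was 0.37 and its arrays were 130 and 61.7 against 164 and 92.9, so the genotypes overlapped there. Another probe set, 1423402_at, gave 193 and 122 against 252 and 252 after saline, a difference of 0.64, and 116 and 178 against 211 and 281 after 14 mg/kg, a difference of 0.68. It did not overlap in either comparison, and its adjusted p by limma was 0.959 after saline. Of the other 2, 1428755_at differed by 0.16 and 1421582_a_at by -0.42. Whether any of these probe sets detects RNA of the transgene was not tested.

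The CREB family members and coactivators came to 14 genes with Creb1. Of these, 0 reached an unadjusted p under 0.05 on the probe set that represents the gene, against 5.59% of all genes. Without overlap 1 stood above and 2 below, against 8.7% and 13.1% of all genes. The list median was -0.08. Tested on their own, the Creb1 probe sets 1452529_a_at and 1423402_at had unadjusted p of 0.000647 and 0.0391 by limma after saline. Creb5, a relative that binds the CRE, gave 92.9 and 210 in wild type and 82.9 and 63.9 in A-CREB. The coactivator Ep300 gave 862 and 928 against 691 and 802. For neither gene did the genotypes overlap, but for Creb5 most of the difference came from the arrays numbered 2 (-1.43, against -0.13 in those numbered 1). Crem, whose ICER form represses CREB targets, stood at 480 and 425 against 468 and 627, and its probe sets differed in sign.

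The listed CREB target genes stood near the background of all genes. Of 36 tested, 1 was higher and 2 were lower at an unadjusted p under 0.05, against 2.24% and 3.34% of all genes, and 2 stood above and 6 below without overlap, against 8.7% and 13.1%. The median was -0.07, against -0.03 over all genes, and it was 0.01 without A-CREB saline array 2 and 0.07 without wild-type saline array 1. The gene with the lower signal in A-CREB and the smallest p was Egr1, an activity-induced zinc finger factor, at 11329 and 7441 in wild type and 8501 and 4429 in A-CREB. It was lower in each pair, by 0.41 and 0.75 on the log2 scale, yet the genotypes overlapped because the arrays numbered 2 were lower in both. Crh, corticotropin-releasing hormone, gave 820 and 450 against 281 and 343. Its difference was -0.92 after saline and 0.95 after 14 mg/kg (unadjusted p = 0.00251 for the change, which did not pass after adjustment). Atf3, a stress-induced CREB relative, was dim, at 29.7 and 47.7 in wild type and 87.4 and 90.6 in A-CREB.

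The 6 targets whose CRE is printed above had differences between -0.13 (Cartpt) and 0.47 (Btg2). Sst gave 5411 and 5432 in wild type and 5880 and 4782 in A-CREB, a difference of -0.03 with a 95% interval from -0.36 to 0.30. Scg2 gave 5195 and 4831 against 4733 and 4485, Dusp1 1810 and 992 against 1379 and 1478, and Pcsk1 204 and 171 against 189 and 165. Of these only Scg2 had arrays that did not overlap, with a difference of -0.12 (95% interval from -0.51 to 0.27). Across the array, 363 tested genes held the full CRE in a window. Their median was -0.03, equal to that of all 10683 tested genes with a window, and 3.58% of them had an unadjusted p under 0.05, against 5.58%. A match to these letters does not show that CREB binds there.

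Activity-regulated genes at rest showed no common direction by the sign of their differences. Of the 24 factors 10 were higher and 14 lower in sign, and of the 35 effectors 20 and 15. Among 24 immediate-early transcription factors the median was -0.05 (2 higher and 1 lower at an unadjusted p under 0.05), and among 35 effectors it was 0.02 (1 and 1). Of all genes, 2.24% were higher and 3.34% lower at that p. Without overlap, 2 of the 24 factors stood above and 6 below, against 8.7% and 13.1% of all genes. Among the 35 effectors these counts were 2 and 3. Cebpd, a stress-responsive factor, was at 735 and 564 in wild type and 937 and 874 in A-CREB. Homer1, which encodes a postsynaptic scaffold and a short activity-induced form, was at 4297 and 1726 against 1465 and 1152. The Homer1 arrays did not overlap, but wild-type array 1 stood far above the rest, and 2 of the 6 tested Homer1 probe sets had the opposite sign. Arc, an activity-induced regulator of AMPA receptor trafficking, was at 1924 and 913 against 1494 and 360, and its difference of -0.83 was 0.037 without A-CREB saline array 2. Gem, a GTPase that lowers calcium channel activity, was at 75.8 and 51.4 against 136 and 84.2. Of 23 neuropeptides and granins 1 was higher and 2 were lower at an unadjusted p under 0.05, against 2.24% and 3.34% of all genes. Scg5, a chaperone of prohormone processing, was at 5779 and 4369 against 6243 and 6554. Adcyap1, the precursor of the peptide PACAP, was at 305 and 385 against 187 and 311, with overlap.

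The 20 genes of smallest unadjusted p were described together, a choice made after the values were seen. Of these, 6 were higher and 14 lower in A-CREB, and the highest adjusted p among them was 0.629. The arrays did not overlap for 19, but the genes were picked by p on these same arrays, so this count is no separate support. Of all genes, 8.7% were higher and 13.1% lower without overlap. Zfas1, a host transcript of small nucleolar RNAs, gave 1373 and 844 in wild type and 2521 and 1841 in A-CREB, a difference of 0.99 (SE 0.17). After 14 mg/kg its difference was -0.23, from 1645 and 1402 against 1354 and 1235. The other higher genes were Mctp1, a calcium-binding membrane protein (393 and 503 against 686 and 993), the kinesin Kif22, the neuronal differentiation factor Neurod1 (1131 and 1313 against 1704 and 2126), Spink8 and Trat1. Neurod1 was higher again in the separate kainate pools, at 1179 and 1619 against 1491 and 2162, a difference of 0.37 after 0.63.

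Among the 14 lower genes, several are known as markers of neocortical neurons. Lamp5, a membrane protein of upper-layer and some inhibitory neurons, gave 2493 and 1297 in wild type and 905 and 872 in A-CREB, differences of -1.44 and -0.56 in the pairs. Cckbr, the cholecystokinin B receptor, gave 835 and 683 against 380 and 381, and Cux2, an upper-layer transcription factor, 934 and 607 against 445 and 377. For each of these the wild-type saline arrays were the highest of the 4, and after 14 mg/kg the difference was -0.29, -0.01 and 0.19. Of the other tested Cux2 probe sets, 1 was at 0.0099 after saline and 1 was lower in both comparisons, at -0.91 and -0.73. The second Cckbr probe set was at -0.55 after saline and 0.18 after kainate. A list of neocortical markers written after these genes had been seen had a median of -0.35 over 15 tested genes and of -0.08 over the 10 that were not seen first. Its mean level was 0.22 and 0.24 in the wild-type saline arrays and -0.11 in both A-CREB saline arrays, centred on the mean of the 10 arrays. Without the 5 genes seen first it was -0.06 and 0.19 against 0.05 and -0.01, and the genotypes overlapped. Its part in the result was not tested. In pooled tissue, fewer cells of a type and less RNA per cell cannot be told apart, here and for every marker list below.

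Other lower genes in that set were Mef2c, a neuronal transcription factor (5556 and 5924 against 3256 and 4368), Grm3, a metabotropic glutamate receptor (1534 and 1173 against 1023 and 636), and the guidance cue Sema3a (536 and 364 against 190 and 232). Pcolce, an enhancer of procollagen processing, stood at 728 and 1167 against 485 and 418. Hspb3, a small heat shock protein, was at 175 and 200 against 64.2 and 80.1, lower by 1.20 and 1.12 in the pairs. Grm3, Pcolce, Hspb3 and Mef2c were slightly higher in A-CREB after 14 mg/kg, by between 0.11 and 0.21. A second tested Pcolce probe set was at -0.54 after saline and -0.57 after kainate, and 1 of 5 tested Mef2c probe sets was at -0.09 after kainate. Hivep1, Npnt, Myl4, Hspg2, Cldn3 and Zap70 made up the rest, and Hspg2 was the gene with overlap.

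**Figure D3:**
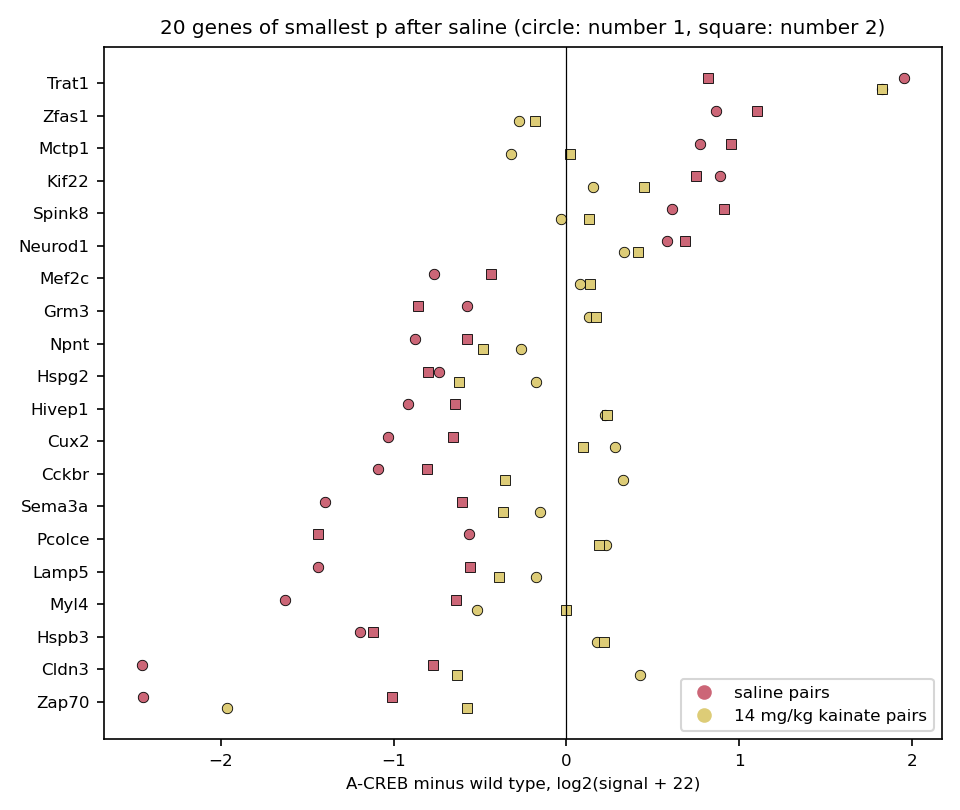
Difference between A-CREB and wild type (log2, x axis) for the 20 genes of smallest p after saline, by gene, with red for the saline pairs, yellow for the 14 mg/kg pairs, circles for arrays numbered 1 and squares for those numbered 2. After kainate, 12 of the 20 kept the direction of the saline pairs, and the Trat1 pairs coincide at 1.83.

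The same genotype difference after 14 mg/kg kainate came from separate pools and could be set beside the saline one. Of the 740 genes at an unadjusted p under 0.05 after saline, 433 (58.5%) had the same direction after kainate, against 54.9% of all genes. Of these 740, 63 also had an unadjusted p under 0.05 in the same direction and 16 in the opposite one, where 4.94% of all genes had such a p in the kainate comparison. Both comparisons took the spread of a gene from the same fit, so a gene with a small spread tends to have a small p in both. Across genes the saline and kainate differences correlated at r = 0.13, a description only, and the arrays share their replicate numbers. Of the 20 genes of smallest p, 12 kept the direction and 5 did so with an unadjusted p under 0.05. The change of the difference with kainate was called for 0 genes (0%) by limma and had an unadjusted p under 0.05 for 477 (3.6%). Of the 20 genes, 14 had such a p for the change. They were picked by the saline values that enter the change, so this count is no separate support.

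The 5 genes that limma called after kainate (0.0377%) were Trat1, Pmf1, Iigp1, Doc2b and C1ql2. Each had the same direction at rest with saline arrays that did not overlap, as 8.7% of all genes did when higher and 13.1% when lower. Doc2b, a calcium sensor for vesicle release, gave 1004 and 1308 in wild-type saline arrays and 776 and 698 in A-CREB, a difference of -0.62 (SE 0.17) at rest and -1.21 after kainate. The A-CREB kainate arrays of both doses stood between 546 and 719. On a second tested Doc2b probe set the saline arrays overlapped, at 628 and 799 against 795 and 321. Its difference was -0.46 at rest and -0.94 after kainate. C1ql2, a synaptic organizer of dentate granule cells, gave 547 and 666 against 521 and 428, a difference of -0.34 at rest and -1.48 after kainate. Iigp1, an interferon-induced GTPase, gave 508 and 521 against 602 and 790. Pmf1, a kinetochore protein, gave 112 and 137.8 against 138.2 and 328, so its saline arrays came close to overlapping. The wild-type Pmf1 signal after kainate was 13.9 and 41.9, so its larger kainate difference came with lower wild-type arrays. Ccdc80, an extracellular matrix protein, differed by 0.19 at rest, at 466 and 526 against 518 and 622, and by 0.96 after kainate, which was not called.

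Genes of the choroid plexus, the epithelium that makes cerebrospinal fluid and borders the hippocampus, had the lowest median of the lists in the saline comparison. Of 14 tested, 10 had an unadjusted p under 0.05, all lower (3.34% of all genes were), and 12 had lower arrays without overlap (13.1% of all genes). The median was -0.67, with -0.29 in the arrays numbered 1 and -1.14 in those numbered 2, and it was -0.32 without wild-type saline array 2. Folr1, a folate receptor, gave 1339 and 1992 in wild type and 949 and 693 in A-CREB. Cldn2, a tight junction claudin, gave 411 and 800 against 294 and 232, and the bicarbonate transporter Slc4a5 gave 234 and 345 against 190 and 73.3. Ttr, the transthyretin gene that defines this epithelium, did not share the pattern, at 27451 and 23132 against 29125 and 23452, and its 4 tested probe sets differed in sign. After 14 mg/kg the list median was -0.03.

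The mean level of the choroid plexus list differed between pools within a genotype too. It was 0.06 and 0.55 in wild-type saline arrays and -0.21 and -0.58 in A-CREB saline arrays. The A-CREB arrays at 18 mg/kg stood at 0.08 and -0.68, a gap as wide as that between the genotypes. The summed signal of the 14 genes, which Ttr dominates, was 38524 and 38122 in wild type and 37794 and 30170 in A-CREB. Cldn3, another claudin, outside the list and among the 20 genes of smallest p, gave 172 and 93.0 against 13.4 and 45.3. Igf2, a growth factor of meninges and choroid plexus and a member of the fibroblast list, gave 2242 and 2440 against 1653 and 1079. How much tissue next to the hippocampus each pool held was not tested. Striatal markers also varied by pool, with a mean level of 0.44 in wild-type saline array 2 and between -0.37 and -0.09 in the other 3 saline arrays. Penk, in that list and among the CREB targets, gave 741 and 1044 against 572 and 492. Wild-type 14 mg/kg array 2 had the highest striatal level, 1.57, while the rest of the kainate arrays stood between -0.42 and -0.03. The striatal median after 14 mg/kg was -0.80, with 0.15 in the arrays numbered 1 and -1.53 in those numbered 2. That array is part of every 14 mg/kg difference given here.

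Markers of the hippocampal cell types themselves were present on all 4 arrays, with a summed signal of 14 CA1 markers from 25776 to 29543. Dentate granule cell markers had a median of -0.24 (-0.07 and -0.54 in the pairs), with 2 of 15 higher and 5 lower at an unadjusted p under 0.05 (2.24% and 3.34% of all genes), and the median was 0.0016 without wild-type saline array 2. Stxbp6, a syntaxin-binding protein, gave 2280 and 2418 in wild type and 1690 and 1530 in A-CREB, without overlap. Its difference of -0.54 was -0.59 in the kainate pools, where the arrays were 2662 and 2273 against 1715 and 1548. A second tested Stxbp6 probe set differed by -0.14 at rest and 0.03 after kainate. Tdo2, tryptophan dioxygenase, went the other way at rest, at 336 and 262 against 475 and 603, with a second tested probe set close to 0 (-0.06). Plk5 was at 189 and 229 against 97.8 and 108. In the kainate pools 10 of the 15 dentate markers were lower without overlap and 1 higher, against 11.7% and 9.89% of all genes, with a median of -0.27.

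The median was 0.10 for 14 CA1 pyramidal cell markers and 0.07 for 11 CA3 markers at rest. In the kainate pools it was -0.21 and -0.22, with 5 of 14 and 6 of 11 lower without overlap, against 11.7% of all genes. Wfs1, a CA1 marker that encodes an endoplasmic reticulum protein, gave 3048 and 2508 in wild type and 2577 and 1696 in A-CREB. Crym, a thyroid hormone-binding protein, gave 5919 and 6092 against 8097 and 7712. These CA1 genes thus lay in opposite directions. Coch, from the CA3 list, gave 478 and 358 against 214 and 283 and was lower by a like amount after kainate (-0.70 and -0.68). Immature neuron markers had a median of 0.12. At an unadjusted p under 0.05, 2 of 17 were higher, Neurod1 among them, and 0 lower, against 2.24% and 3.34% of all genes. Sox11, a factor of young neurons, gave 1681 and 962 against 1940 and 1679, with 2 of 6 tested probe sets of opposite sign.

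Microglia markers had a median of 0.23 (0.06 and 0.40 in the pairs), with 4 of 23 higher and 0 lower at an unadjusted p under 0.05 (2.24% and 3.34% of all genes) and 7 higher without overlap (8.7% of all genes). The median was 0.04 without A-CREB saline array 2 and 0.42 without array 1. Ctss, the microglial protease cathepsin S, gave 3301 and 4122 in wild type and 4179 and 6964 in A-CREB. Ly86, an accessory protein of Toll-like receptor signalling, gave 934 and 667 against 1138 and 1128. Both were without overlap, and Ctss was above wild type mainly in A-CREB array 2. Trem2, a microglial lipid receptor, gave 251 and 26.3 against 243 and 328, so that 1 low wild-type array made its difference of 1.40.

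Among activated microglia genes the counts were 3 higher and 0 lower of 23 at an unadjusted p under 0.05, against 2.24% and 3.34% of all genes. Cst7, a cystatin of reactive microglia, gave 79.5 and 16.2 against 145 and 131. Clec7a, a receptor of reactive microglia, gave 105 and 108 against 125 and 290, and Cd52 gave 198 and 134 against 227 and 539. For Clec7a and Cd52, A-CREB array 1 lay close to the wild-type arrays and array 2 well above them. In the kainate pools the Clec7a signals were 71.0 and 52.2 against 213 and 265, and at 18 mg/kg 284 and 315.

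MHC and interferon genes had a median of 0.29, with 5 of 27 higher and 2 lower at an unadjusted p under 0.05, against 2.24% and 3.34% of all genes. The arrays numbered 1 gave -0.07 and those numbered 2 gave 0.45, and without A-CREB saline array 2 the median was 0.0036. Oasl2, an interferon-induced antiviral gene, gave 316 and 310 in wild type and 455 and 889 in A-CREB. B2m, the light chain of MHC class I, gave 5225 and 4102 against 5849 and 6838. Both were highest in A-CREB array 2. Cxcl10, an interferon-induced chemokine, gave 154 and 65.9 against 190 and 292, and Ifit3 gave 558 and 438 against 596 and 1026. The 2 lower genes were chains of MHC class II, which presents antigen to helper T cells. H2-Aa gave 126 and 224 in wild type and 74.2 and 136 in A-CREB, and H2-Ab1 gave 123 and 142 against 51.0 and 108. Another class II gene, H2-Eb1, was also lower in both pairs, at 103 and 167 against 38.6 and 114. After 14 mg/kg the differences were 0.31 for H2-Aa, -0.14 for H2-Ab1 and 0.30 for H2-Eb1. In the kainate pools the median of the list was 0.54 with 17 of 27 higher without overlap, and that of the microglia list was 0.49 with 15 of 23, where 9.89% of all genes were higher without overlap in that comparison. Blood cell genes, measured by 4 tested genes, had a median of 0.47. Alas2, the first enzyme of haem synthesis in red cells, gave 331 and 591 against 530 and 1248, and Slc4a1, the red cell anion exchanger, 95.4 and 164 against 206 and 359. A-CREB array 2 was the highest of the saline arrays in both red cell genes and in Oasl2, B2m, Cxcl10 and Ifit3, and the part of blood in the latter was not tested. Cytokine and chemokine genes had a median of 0.13, with 0.11 and 0.01 in the pairs, 10 of 17 higher and 7 lower in sign, and Cxcl10 as the 1 gene at an unadjusted p under 0.05.

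Reactive astrocyte genes had a median of 0.20, with 4 of 22 higher and 1 lower at an unadjusted p under 0.05 (2.24% and 3.34% of all genes), and of -0.06 without A-CREB saline array 2. Gfap, the intermediate filament of astrocytes, gave 3742 and 2446 in wild type and 7148 and 3458 in A-CREB. It was higher by 0.93 and 0.50 in the pairs, with overlap between genotypes, and by 0.53 after kainate. Serpina3n, a secreted protease inhibitor of reactive astrocytes, gave 525 and 369 against 718 and 576. Igfbp2 was the lower one, at 2247 and 1840 against 1823 and 997. Complement genes had a median of 0.32 with 0 of 8 at an unadjusted p under 0.05 on the probe set that represents the gene. On that probe set C3ar1, the C3a receptor, gave 121 and 163 against 172 and 243. Other tested C3ar1 probe sets differed by 1.54 (unadjusted p = 0.000371, adjusted p = 0.959 by limma) and 0.22 after saline. General astrocyte markers stood at a median of 0.02.

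Of 27 genes of synaptic vesicle fusion 1 was higher and 4 were lower at an unadjusted p under 0.05 (2.24% and 3.34% of all genes), with a median of -0.12 that was 0.06 without A-CREB saline array 2 and 0.04 without wild-type saline array 2. With Doc2b the lower ones were Cplx3, a complexin (338 and 371 against 205 and 234), the vesicle GTPase Rab3a (10512 and 14376 against 8972 and 10480) and the membrane syntaxin Stx1a (4553 and 4716 against 3692 and 3769). Each of these was lower in both A-CREB arrays, while after kainate Cplx3, Rab3a and Stx1a differed by 0.21, -0.06 and 0.14. Second tested probe sets of Rab3a and Stx1a were at -0.02 and -0.19 after saline. The GABA-A receptor subunit Gabrd, found outside the synapse in dentate granule cells, gave 531 and 297 against 305 and 187. It was lower in both pairs, with overlap, and its difference after kainate was -0.53. The NMDA receptor subunit Grin2a gave 219 and 112 against 288 and 255, and Kcnip1, a potassium channel partner, 696 and 442 against 798 and 763, with 1 of 2 tested probe sets of opposite sign. Among glutamate receptors 0 of 16, among potassium channels 1 of 29, and among calcium, sodium and HCN channels 0 of 22 had an unadjusted p under 0.05. The share of all genes with such a p was 5.59%.

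Of 23 cell death and survival genes 3 were higher and 0 lower at an unadjusted p under 0.05 (2.24% and 3.34% of all genes), with a median of -0.02. Apaf1, the core of the apoptosome, gave 322 and 463 in wild type and 508 and 593 in A-CREB. The proapoptotic genes Bid and Hrk gave 380 and 277 against 437 and 498, and 1224 and 913 against 1417 and 1314. All 3 had arrays that did not overlap, and after kainate Apaf1 differed by -0.38, Bid by 0.01 and Hrk by 0.14. Second tested probe sets of Apaf1, Bid and Hrk were at 0.49, 0.04 and 0.24 after saline. Oligodendrocyte genes had a median of -0.13, with 1 of 14 higher and 2 lower at an unadjusted p under 0.05 (2.24% and 3.34% of all genes). Without overlap 1 was higher and 6 were lower, against 8.7% and 13.1% of all genes. Mog, a myelin glycoprotein, gave 3606 and 3363 against 2619 and 2516, and its difference of -0.44 was -0.01 in the kainate pools. Gjc3, a connexin of myelinating cells, went the other way, at 133 and 70.2 against 204 and 215, without overlap. Of 12 oligodendrocyte precursor genes 0 were higher and 3 lower at an unadjusted p under 0.05, against 2.24% and 3.34% of all genes. Gpr17, a receptor of maturing precursors, gave 2148 and 3812 against 1953 and 2316, and Bmp4, a signalling ligand, gave 328 and 395 against 250 and 237. Bmp4 differed by -0.53 at rest and by 0.51 after kainate. For heat shock and stress genes the median was -0.10 (0 of 18 higher and 1 lower), for fibroblast and meningeal genes -0.11 (0 of 13 higher and 1 lower), for endothelial and mural genes -0.09 and for GABAergic interneuron genes -0.03 (0 of 16 at an unadjusted p under 0.05 in each of the latter).

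**Figure D4:**
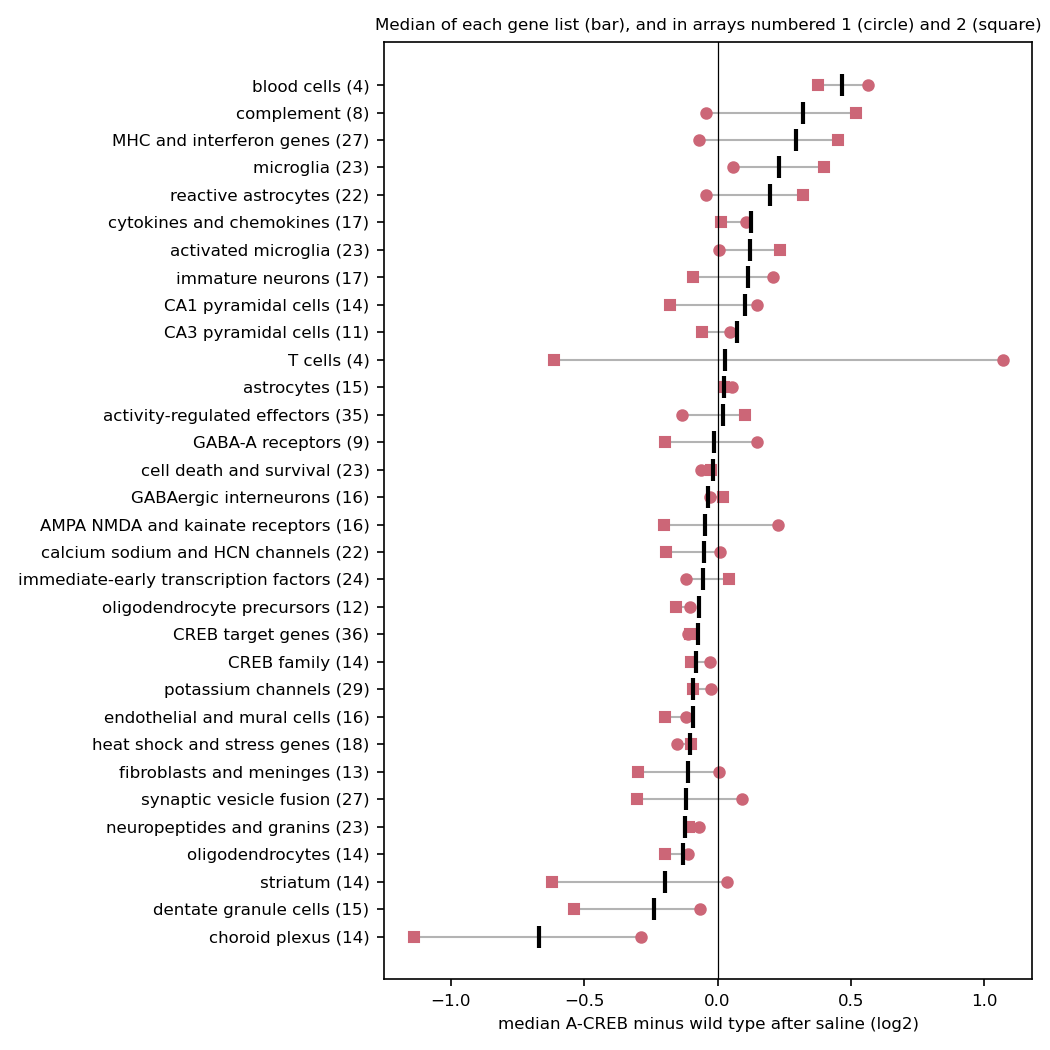
Median difference between A-CREB and wild type after saline (log2, x axis) of each gene list with at least 3 tested genes, number tested in brackets, as a black bar, with circles for the arrays numbered 1 and squares for those numbered 2. Choroid plexus genes are lowest at -0.67, and the circle and square of a list often lie far apart, as for MHC and interferon genes (-0.07 and 0.45).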

How the data were processed

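Hippocampal RNA was hybridised to Mouse430_2 arrays, 10 in 5 groups of 2, each a pool of 3 to 4 mice (14 wild-type and 20 A-CREB mice in all), per the labels. Values were deposited as intensity, the linear MAS5 signal of each probe set. Per the submitters' processing notes, MAS5 and GCOS were used, in versions that the sources used here do not give. On each array the 2% trimmed mean was 500.002 to 500.003, so arrays had been scaled to a common mean. This does not make distributions alike, and no further scaling was done. The number of arrays limits the precision.

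Signals were taken as log2(signal + 22), near the 20th percentile of all signals. Probe sets in the upper 60% of mean signal were kept (27022), and a gene was represented by its brightest. Gene names came from the platform table, and a look-up in RefSeq renamed 0 probe sets. Older symbols in the gene lists were updated through RefSeq. All 10 arrays were fitted with limma 3.58.1 in R 4.3.3 (eBayes with intensity trend, 4 residual degrees of freedom), two-sided, Benjamini-Hochberg adjusted over all genes within each of 3 contrasts, at a threshold of 0.05. The procedure was tested on simulated data.

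Replicate number was a block. Between the numbers, 4717 of 13248 genes differed at an adjusted p under 0.05 by limma, and this shift is not part of the standard errors. What the numbers mark is not stated. In all 10 pairs of groups, deviations of same-numbered arrays correlated (0.523 to 0.648), and all 10 arrays correlated best with one of the same number.

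Named were to be the called genes with the largest changes (there were 0), the 4 or fewer genes of smallest p in each list, Creb1, Trat1, Pmf1, Doc2b, Ccdc80 and Clec7a. The 20 genes of smallest p, other genes named and some promoters were chosen after values were seen. The members and lists were chosen with earlier results of these data known. Alternatives were the pseudocount, filter, normalization, variance prior, array weights, probe set rule, the block, only the saline arrays and leaving out each array. Testing each probe set on its own was added after seeing the data.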

Additional observations from a re-analysis of the deposited data

How the results depend on the processing

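The count of genes called after saline was 0 in every alternative but these: 1 with the mean of the probe sets of a gene (Trat1), 1 with each probe set on its own, and 0 to 1 on leaving out an array (Kctd7 without A-CREB saline array 1, Otub1 without wild-type saline array 1). Genes at an unadjusted p under 0.05 numbered 740, 1382 with each probe set on its own, 196 without the replicate block and 392 to 1408 on leaving out an array. The Trat1 probe set 1427532_at differed by 3.08 but lost its call without the replicate block (adjusted p = 0.0965) and with only the 4 saline arrays (3.08, adjusted p = 0.0626), and its difference was 2.91 to 3.25 on leaving out an array, 3.56 with a smaller pseudocount and 2.11 with a larger one. Genes called after 14 mg/kg numbered 5, against 12 with array weights, 3 with the mean of the probe sets, 3 without _s_at, _x_at and _a_at probe sets, 1 with each probe set on its own, 0 without the filter, 0 without the intensity trend, 0 without the replicate block and 0 to 9 on leaving out an array. The change of the difference was called for 0 to 1 genes on leaving out an array. The share of saline genes with the same direction after kainate was 51.6% to 66.2% on leaving out an array.

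Of 95 genes, 88 kept their direction in every alternative. On leaving out an array the difference crossed 0 for Arc (-1.69 to 0.037), Btg2 (-0.072 to 1.01), Cartpt (-0.70 to 0.45), Dusp1 (-0.29 to 0.47), Pcsk1 (-0.24 to 0.093), Sst (-0.28 to 0.22) and Ttr (-0.087 to 0.19). Ttr was at -0.017 with the mean of its probe sets. Without wild-type saline array 2, 52.6% of genes at an unadjusted p under 0.05 were higher, against 40.1%.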
